A study of Schizosaccharomyces pombe with 6 samples.

Results

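The genes of ubiquitin ligases and ubiquitin conjugating enzymes were examined in the fission yeast Schizosaccharomyces pombe with and without the 14-3-3 protein Rad24. The 99 genes, of 6986 in the count table and 5126 protein coding ones, were taken by the product descriptions in the authors' deposited table: protein coding genes described as a ubiquitin ligase, a ubiquitin conjugating enzyme or an F-box protein, leaving out proteasome entries and genes whose names start with mug, meu or mde. No measured value entered that choice. Poly(A)+ RNA was sequenced from 3 libraries of an h+ strain whose rad24 gene had been replaced by the NatMX drug resistance marker (rad24∆::NatMX) and from 3 libraries of a wild type h+ strain, each genotype being 1 laboratory strain. Both were in vegetative growth in YES, a rich medium, and were sampled at 30 °C in log phase, and the study was set up around factors that act on termination of RNA polymerase II.

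Ubiquitin is passed from an activating enzyme (E1) to a conjugating enzyme (E2), and a ligase (E3) then brings the charged E2 to the protein that is to be marked. HECT ligases take the ubiquitin onto themselves before passing it on, whereas RING ligases bring E2 and substrate together. In SCF ligases a cullin scaffold holds a RING protein at one end and Skp1 with an exchangeable F-box protein, the substrate receptor, at the other. Depending on the chain that is built, the mark sends a protein to the proteasome or the vacuole, or changes what it binds, as for histone H2B in transcribed chromatin.

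The mutant libraries held 19396868 to 21730112 counts and the wild type libraries 11539278 to 15282140, so each mutant library was deeper. The rad24 gene itself had 27, 39 and 15 counts in the mutant and 22565, 18442 and 21135 counts in wild type, as the labels say. Pearson correlations of log CPM (counts relative to the scaled size of the library) were 0.9956 to 0.998 within a genotype and 0.9383 to 0.9454 between genotypes. The 5 P-cell marker genes of the h+ mating type summed to 1860 to 2050 CPM in the mutant and 1520 to 1600 CPM in wild type, with 4 of them higher and 1 lower. Single markers moved far more than that sum. The most abundant, sxa1, was lower, at 847, 830.4 and 832 CPM in the mutant, against 1398, 1403 and 1471 CPM in wild type. In contrast map2 averaged 450.3 ± 50.4 CPM in the mutant and 5.14 ± 0.0173 CPM in wild type, map4 352 ± 18.7 CPM in the mutant and 49.4 ± 1.04 CPM in wild type, and map3 243 ± 21.0 CPM in the mutant and 35.6 ± 3.87 CPM in wild type. The 7 marker genes of the other mating type summed to 241 to 245 CPM in the mutant and 201 to 223 CPM in wild type, with 5 higher, 2 lower and none at 0 in any library. Of the 2 lower ones, mam2 averaged 4.31 ± 0.307 CPM in the mutant and 35.5 ± 3.06 CPM in wild type. Of the 5 higher ones, mam3, the most abundant, averaged 143 ± 3.40 CPM in the mutant and 86.9 ± 7.13 CPM in wild type. The mfm2 gene, also higher, averaged 12.2 ± 1.17 CPM in the mutant and 2.28 ± 0.185 CPM in wild type. The 4 meiotic marker genes summed to 28.1 to 30.5 CPM in the mutant and 23.0 to 26.5 CPM in wild type. The part of these markers in the results below was not tested. In RNA from whole cultures, fewer cells that express a gene and less of its RNA per cell cannot be told apart.

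All 99 genes passed the filter on low counts, the lowest count in any library being 77. In the mutant 52 were higher and 28 lower than in wild type at an edgeR adjusted p below 0.05, and 19 were not called. That is 80.8% of the genes, against 78.3% of the 6084 tested genes (40.9% higher, 37.4% lower) and 81.3% of the tested protein coding genes. The number of calls was therefore close to the background. Of the calls, 65.0% were rises, against 52.3% over all tested genes. The 3 libraries of each genotype did not overlap for 81 of the 99 genes (81.8%), against 80.0% of all tested genes and 82.9% of protein coding ones.

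The changes were small. The median log2 fold change of the 99 genes, mutant over wild type, was 0.12, against 0.02 for all tested genes, and the median size regardless of sign was 0.24, against 0.34 for all tested genes and 0.31 for protein coding ones. Only 6 genes (6.06%) changed at least 2-fold by the test, 3 higher and 3 lower, against 12.8% of all tested genes (7.23% higher, 5.52% lower) and 9.39% of protein coding ones (5.24% higher, 4.15% lower). When libraries were scaled by their size alone, the median of all tested genes moved to 0.19. Under that scaling 68 members of the set were higher and 16 lower, and 81.0% of their calls were rises against 67.0% over all genes. With upper quartile factors the median of all genes was 0.12, and 72.4% of the calls were rises against 61.1%.

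**Figure D1:**
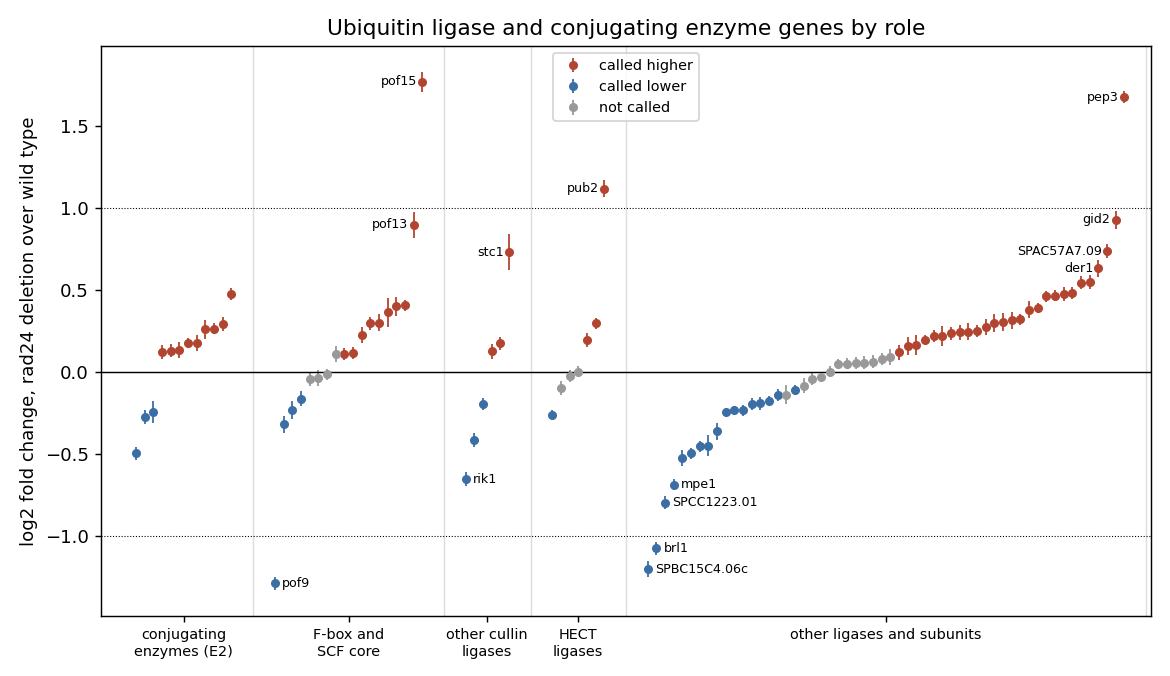
Log2 fold change of each of the 99 genes, rad24 deletion over wild type, with bars of 1 SE, grouped by role and ordered by size within a role; dotted lines mark 2-fold. Most points lie within 2-fold, and 6 genes lie beyond it, pof15, pep3 and pub2 above and pof9, SPBC15C4.06c and brl1 below.

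The conjugating enzymes moved by small amounts. Each of the 12 genes was called, 9 higher and 3 lower, with log2 fold changes between -0.49 and 0.48 and a median of 0.16. Over all tested genes 78.3% were called, and 81.3% over protein coding ones. The rises of ubc6, ubc1 and ubc15 are not called in the authors' deposited table (adjusted p there 0.1255, 0.0556 and 0.116). Summed over the 12 genes, the level was 1953, 1959 and 1985 CPM in the mutant, against 1767, 1820.1 and 1816 CPM in wild type. The ranges of the summed level did not overlap, and the mean of the mutant was 1.09 times that of wild type.

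The largest rise among them was that of mms2, whose product forms with Ubc13 the E2 pair that builds chains linked through lysine 63 of ubiquitin. It had 158, 159 and 160.0 CPM in the mutant, against 117, 108 and 117 CPM in wild type (log2 fold change 0.48, SE 0.04, adjusted p = 3.23e-08). Its partner ubc13 had 115, 110.1 and 120.1 CPM in the mutant, against 90.2, 95.1 and 96.2 CPM in wild type (log2 fold change 0.29, SE 0.04, adjusted p = 1.47e-05). Both genes of the pair were higher in each mutant library than in each wild type library.

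Ubc4 and Ubc11 are the E2s that serve the anaphase-promoting complex, the ligase that starts anaphase, and Ubc4 serves SCF as well. The ubc11 gene averaged 138 ± 3.04 CPM in the mutant and 115 ± 1.78 CPM in wild type (log2 fold change 0.27, SE 0.03, adjusted p = 3.72e-06), and ubc4 averaged 978 ± 8.76 CPM in the mutant and 892 ± 23.6 CPM in wild type (log2 fold change 0.13, adjusted p = 0.00842). The gene of Rhp6, the homolog of Rad6 of S. cerevisiae, which ubiquitinates histone H2B and the replication clamp PCNA, averaged 136 ± 3.57 CPM in the mutant and 121 ± 2.24 CPM in wild type (log2 fold change 0.18, adjusted p = 2.03e-04). For these 3 genes each mutant library lay above each wild type library, by small margins. The call of ubc6, the E2 of the endoplasmic reticulum (log2 fold change 0.12, adjusted p = 0.012), was lost with DESeq2 (0.10), without mutant replicate 3 (0.11) and without wild type replicate 1 (0.10); here and below, a value given for an alternative is its log2 fold change.

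The 3 E2 genes that fell were ubc16, ubc7 and ubc14. The predicted E2 gene ubc16 had 100.04, 94.5 and 99.0 CPM in the mutant, against 131, 144 and 139.6 CPM in wild type (log2 fold change -0.49, SE 0.04, adjusted p = 5.19e-08). The ubc7 gene, whose product serves degradation of proteins of the endoplasmic reticulum, had 54.8, 52.5 and 56.7 CPM in the mutant, against 65.2, 65.7 and 66.9 CPM in wild type (log2 fold change -0.27, SE 0.04, adjusted p = 6.49e-05), and its call was lost with scaling by library size only (-0.11). In both cases each mutant library lay below each wild type library, with the larger gap for ubc16.

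Per kilobase of exon, ubc4 was the most abundant of the 12, at 1694 ± 15.2 CPM per kb in the mutant and 1546 ± 40.9 CPM per kb in wild type. It was followed by mms2 (236 in the mutant, 169.6 in wild type), rhp6 (183 and 162), ubc13 (173 and 141) and ubc11 (140.4 and 117). In the mutant mms2 lay above rhp6, and in wild type the levels of the pair were within their SDs. The lowest was ubc1, at 17.7 CPM per kb in the mutant and 16.1 in wild type.

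**Figure D2:**
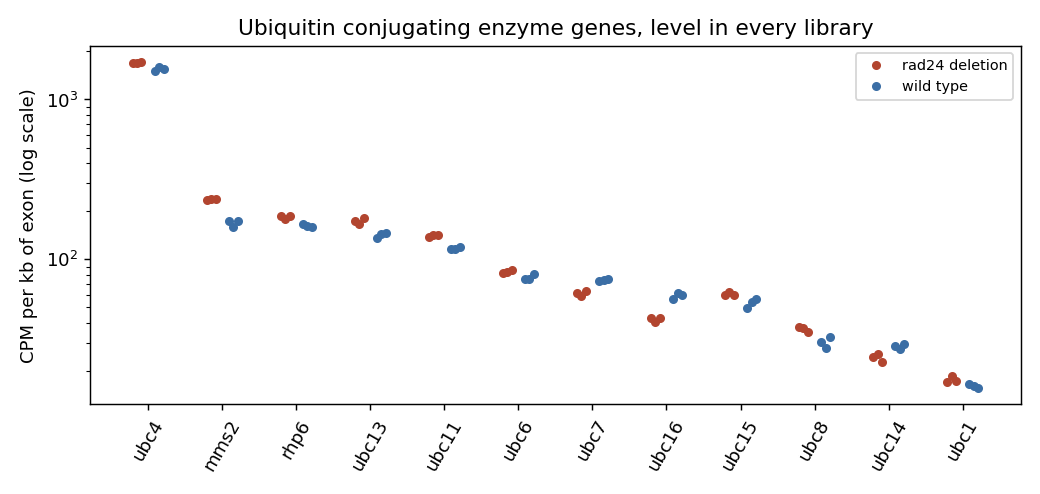
Level of the 12 conjugating enzyme genes in each library, in CPM per kb of exon on a log scale, rad24 deletion to the left of wild type for each gene. The level of ubc4 is far above that of the other genes in each library, and ubc16, ubc7 and ubc14 are lower in the mutant.

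Among the genes of SCF ligases, 16 F-box genes with skp1 and rbx1, 10 were higher, 4 lower and 4 not called. The core genes did not move alike: skp1, which encodes the adaptor, averaged 90.0 ± 2.32 CPM in the mutant and 73.4 ± 3.04 CPM in wild type (log2 fold change 0.30, SE 0.04, adjusted p = 1.19e-05), while rbx1, which encodes the RING subunit, averaged 67.5 ± 3.55 CPM in the mutant and 69.0 ± 2.60 CPM in wild type (log2 fold change -0.03, adjusted p = 0.514; 0.13 on the log2 scale when scaled by library size only). Of the 16 F-box genes, 9 were higher, 4 lower and 3 not called, and 2 of them had the largest rise and the largest fall of all 99 genes. Summed over the 16, the level was 1042, 1071 and 1066 CPM in the mutant, against 954, 948 and 959 CPM in wild type. The mean of the sum was 1060 CPM in the mutant and 953 CPM in wild type. Of this, pof15 alone made up 167 CPM in the mutant and 48.8 CPM in wild type. Without pof15 the sum was not higher in the mutant. That remainder holds pof9, the largest fall, which averaged 57.0 CPM in the mutant and 139 CPM in wild type. It therefore does not show that the remaining F-box genes had no net rise.

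The largest rise was that of pof15 (SPAPB1A10.14), a predicted F-box protein gene. It had 153, 175 and 173 CPM in the mutant, against 45.7, 48.3 and 52.4 CPM in wild type, a 3.42-fold difference (log2 fold change 1.77, SE 0.06, adjusted p = 8.74e-12). The lowest mutant library stood far above the highest wild type library. In the ASM294v3 annotation its start overlaps the end of the upstream gene SPAPB1A10.13 on the same strand, which averaged 125 ± 4.91 CPM in the mutant and 107 ± 2.23 CPM in wild type (log2 fold change 0.22), and the next gene downstream, arv1, moved by -0.08 on the log2 scale (adjusted p = 0.241). Reads from the overlap of pof15 and SPAPB1A10.13 cannot be assigned to one of them.

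The largest fall was that of pof9 (SPBC3H7.06c), another F-box gene. It had 58.0, 58.4 and 54.6 CPM in the mutant, against 137, 145 and 136 CPM in wild type, 2.44-fold lower (log2 fold change -1.29, SE 0.04, adjusted p = 3.32e-12). The ratio of pof15 to pof9 counts was 2.63, 3.00 and 3.16 in the mutant libraries, against 0.333, 0.333 and 0.386 in the wild type libraries, so the order of these F-box genes by count was turned round in each library. The neighbour of pof9 on the same strand, the acyltransferase gene SPBC3H7.05c, had a log2 fold change of -0.82, and ser2 on its other side one of -0.44. The antisense RNA gene opposite ser2, ser2-antisense-1, which does not overlap pof9, had 4.30, 3.38 and 4.52 CPM in the mutant, against 53.0, 61.9 and 58.2 CPM in wild type (log2 fold change -3.81, SE 0.10, adjusted p = 4.04e-13), the largest change among the tested neighbours of pof9.

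The F-box gene pof13 had 40.9, 38.9 and 41.7 CPM in the mutant, against 21.6, 18.3 and 24.6 CPM in wild type (log2 fold change 0.90, SE 0.08, adjusted p = 1.76e-07), with a wider spread among the wild type libraries than among the mutant ones. Without wild type replicate 3 its log2 fold change was 1.00, just past 2-fold. Among the other F-box genes pof11 (log2 fold change 0.41) and pof3 (0.40) were higher. The rise of pof3 is not called in the authors' deposited table (adjusted p there 0.0821). Pof3 is needed for genome integrity. The gene of Pof1, which targets the transcription factor Zip1, rose by 0.11 on the log2 scale (adjusted p = 0.0114), and pof10 by 0.12 (adjusted p = 0.00933). The calls of pof1 and pof10 were lost with DESeq2 (0.09 for each). The gene of Pof6, an F-box protein needed for cell separation, averaged 58.0 ± 1.83 CPM in the mutant and 64.6 ± 3.37 CPM in wild type (log2 fold change -0.16, adjusted p = 0.0073), which became -0.06 and was not called with upper quartile factors and was 0.0041 with library size only. The pof7 and pof2 genes were also lower, by 0.32 and 0.23 on the log2 scale.

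The gene of Pop2, the receptor that with Pop1 removes the cell cycle inhibitor Rum1 and the replication factor Cdc18, was not called. It had 107, 108 and 109.7 CPM in the mutant, against 111, 111 and 105 CPM in wild type (log2 fold change -0.01, adjusted p = 0.752). Its log2 fold change was 0.08 with upper quartile factors and 0.15 with library size only. The pop1 gene, whose product description does not fall under the rule, averaged 119 ± 1.66 CPM in the mutant and 91.0 ± 1.40 CPM in wild type (log2 fold change 0.39, adjusted p = 7.47e-08). The libraries of the genotypes overlapped for pop2 and not for pop1. The fbh1 gene, which encodes a DNA helicase with an F-box that limits homologous recombination, was not called either (log2 fold change -0.04, adjusted p = 0.392).

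**Figure D3:**
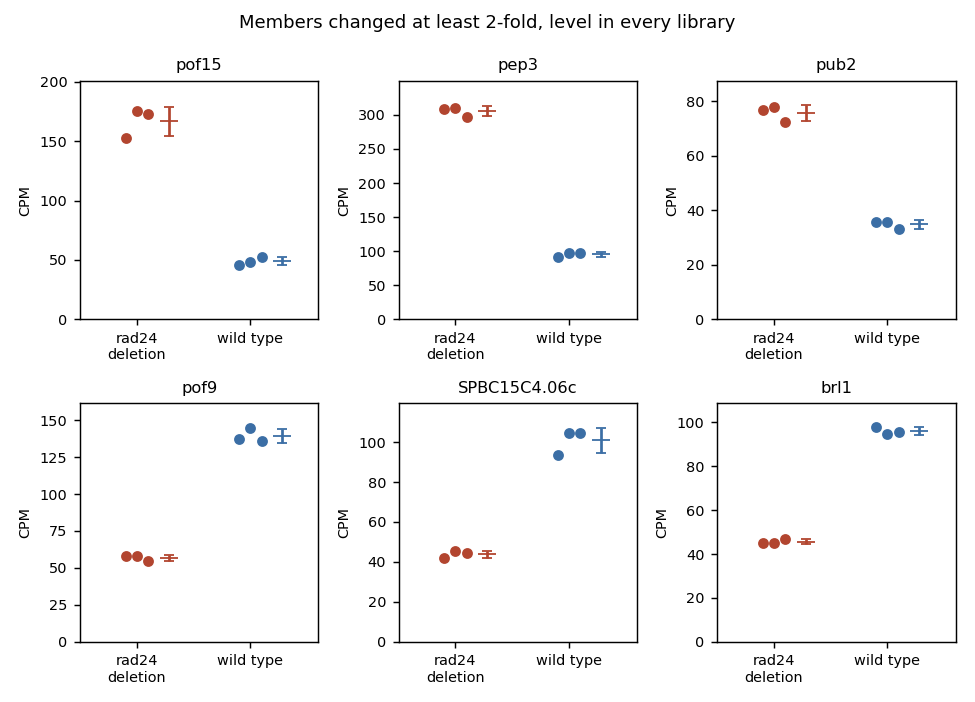
Level in CPM of the 6 genes that changed at least 2-fold, in each of 3 rad24 deletion libraries (left) and 3 wild type libraries (right), with the mean and SD beside the points; each axis starts at 0. The libraries of the genotypes are apart in each of the 6 genes, with pof15, pep3 and pub2 higher and pof9, SPBC15C4.06c and brl1 lower in the mutant.

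Of the 6 genes of other cullin ligases, 3 were higher and 3 lower. Among them are genes of CLRC, the Cul4 ligase that marks histone H3 so that the methyltransferase Clr4 can build heterochromatin. The rik1 gene, its large WD repeat subunit, had 55.6, 55.0 and 53.3 CPM in the mutant, against 85.2, 89.0 and 83.5 CPM in wild type (log2 fold change -0.65, SE 0.04, adjusted p = 5.05e-09). The stc1 gene, whose product links CLRC to the RNA interference machinery, had 11.9, 13.8 and 12.3 CPM in the mutant, against 8.51, 7.19 and 7.09 CPM in wild type (log2 fold change 0.73, SE 0.11, adjusted p = 3.16e-05). So the subunit genes rik1 and stc1 moved in opposite directions, and stc1 was the least abundant of the 99 genes by CPM. The raf2 gene rose by less (0.13). The btb3 gene, a substrate adaptor of cullin 3, fell by 0.41 on the log2 scale (SE 0.04, adjusted p = 8.35e-07). The mms1 gene, predicted to serve a ligase that acts at stalled replication forks in S. cerevisiae, fell by 0.19, and its call was lost with library size only (-0.03).

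HECT ligases were the least moved of the role groups by median size regardless of sign (0.19) and by share called (57.1%). Over all tested genes 78.3% were called. The HECT gene pub2 nevertheless passed 2-fold. Of 7 genes 3 were higher, 1 lower and 3 not called, with a median log2 fold change of 0.00, and their summed level was 1122, 1116 and 1115 CPM in the mutant, against 1102, 1098 and 1098 CPM in wild type. The slightly higher sum rested on pub2, which averaged 75.8 CPM in the mutant and 34.9 CPM in wild type. Within the group, the 3 relatives of the NEDD4 family differed from each other. The pub1 gene, whose product sends membrane transporters to the vacuole, was the most abundant per length (132 CPM per kb in the mutant, 134 in wild type).

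The pub1 gene had 385, 377 and 372 CPM in the mutant, against 379, 392 and 381 CPM in wild type (log2 fold change -0.02, SE 0.04, adjusted p = 0.592), and its log2 fold change was 0.14 with library size only. The pub2 gene had 76.9, 78.0 and 72.4 CPM in the mutant, against 35.8, 35.8 and 33.1 CPM in wild type, a 2.17-fold difference (log2 fold change 1.12, SE 0.05, adjusted p = 1.67e-10). The pub3 gene had 166, 164 and 184 CPM in the mutant, against 188, 182 and 180.3 CPM in wild type (log2 fold change -0.10, adjusted p = 0.0515). The libraries of the genotypes overlapped for pub1 and pub3 and were apart for pub2.

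As a ratio of counts, pub2 to pub1 was 0.200, 0.207 and 0.194 in the mutant libraries, against 0.0945, 0.0914 and 0.0868 in the wild type libraries. The pub3 gene, which lay just on the far side of the threshold, was called lower with RLE factors (-0.12), DESeq2 (-0.12) and limma-voom (-0.10), with the replicate block (-0.10), and when mutant replicate 3 (-0.15) or wild type replicate 3 (-0.12) was left out. Its direction rested on the scaling, since it was -0.0016 with upper quartile factors and 0.07 with library size only, not called in either. In the ASM294v3 annotation the end of pub2 overlaps SPAC1805.14 on the opposite strand (log2 fold change -0.17), and the gene upstream of it on its own strand, the nucleoside phosphorylase gene SPAC1805.16c, had a log2 fold change of 0.67.

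Among the other HECT genes, ptr1 was lower and hul5 and ipa1 were higher. The ptr1 gene, needed for export of mRNA from the nucleus, averaged 165 ± 1.84 CPM in the mutant and 198 ± 4.39 CPM in wild type (log2 fold change -0.26, SE 0.03, adjusted p = 3.69e-06). The hul5 gene averaged 97.4 ± 1.79 CPM in the mutant and 79.2 ± 0.550 CPM in wild type (log2 fold change 0.30, adjusted p = 2.47e-06). The ipa1 gene, described as a HECT ligase of cleavage and polyadenylation, averaged 71.7 ± 2.04 CPM in the mutant and 62.5 ± 2.26 CPM in wild type (log2 fold change 0.19, adjusted p = 8.88e-04). The gene SPAC12B10.01c, described as acting against ubiquitinated chromatin, averaged 158 ± 2.31 CPM in the mutant and 158 ± 6.38 CPM in wild type and was not called (log2 fold change 0.00, adjusted p = 0.926).

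The other 56 genes are RING and related ligases and subunits of their complexes. Of these, 27 were higher and 17 lower, 3 of which moved by 2-fold or more, and 12 were not called. Their summed level was 5945, 5925 and 5934 CPM in the mutant, against 5721, 5635 and 5737 CPM in wild type, with a ratio of the means of 1.04. Most of that difference lay in 1 gene, pep3, which averaged 305 CPM in the mutant and 95.5 CPM in wild type. The most abundant per length was SPAC6B12.07c, a predicted ligase with an SPX domain, a fold that senses inositol pyrophosphates. It stood at 135 ± 3.32 CPM per kb in the mutant and 127 ± 3.41 in wild type (log2 fold change 0.08, adjusted p = 0.0538), and it was called higher without wild type replicate 1 (0.10) and with limma-voom (0.08).

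The largest rise and one of the largest falls in this group were those of neighbouring genes. The pep3 gene (SPCC790.02) encodes Vps18, a shared subunit of the HOPS and CORVET complexes that tether endosomes and vacuoles before they fuse. It had 309, 311 and 297 CPM in the mutant, against 91.5, 97.3 and 97.7 CPM in wild type, a 3.20-fold difference (log2 fold change 1.68, SE 0.04, adjusted p = 1.19e-13). The brl1 gene (SPCC1919.15) encodes a RING ligase that, with Brl2 and the E2 Rhp6, ubiquitinates histone H2B. It had 45.0, 45.1 and 47.1 CPM in the mutant, against 98.0, 94.7 and 95.8 CPM in wild type (log2 fold change -1.07, SE 0.04, adjusted p = 2.02e-11). With upper quartile factors and with library size only brl1 fell by less than 2-fold (-0.98 and -0.91).

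In the ASM294v3 annotation pep3 follows brl1 on the same strand, and the antisense RNA gene brl1-antisense-1 lies opposite brl1 along nearly the whole of it. That antisense gene had 116, 116 and 116 CPM in the mutant, against 8.30, 5.13 and 6.37 CPM in wild type (log2 fold change 4.10, SE 0.08, adjusted p = 3.57e-14). Its level was above that of brl1 in the mutant libraries and a small part of it in the wild type libraries: the ratio of the antisense gene to brl1 was 2.58, 2.58 and 2.46 in the mutant, against 0.0848, 0.0542 and 0.0665 in wild type. The ratio of pep3 to brl1 was 6.86, 6.89 and 6.31 in the mutant, against 0.934, 1.03 and 1.02 in wild type. The antisense gene opposite pep3, pep3-antisense-1, averaged 5.87 ± 0.501 CPM in the mutant and 5.71 ± 0.976 CPM in wild type (log2 fold change 0.02, adjusted p = 0.893).

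The change was largest in these 3 genes of the locus. The gene beyond brl1, bdp1 on the other strand, had a log2 fold change of -0.24, and the gene beyond pep3, rbd2, one of 0.34. The other ligase gene of H2B ubiquitination, brl2, averaged 128 ± 1.86 CPM in the mutant and 138 ± 3.73 CPM in wild type (log2 fold change -0.11, adjusted p = 0.00745), was not called with upper quartile factors (-0.01) and turned to 0.06 with library size only. The ratio of brl1 to brl2 was 0.355, 0.355 and 0.362 in the mutant, against 0.708, 0.669 and 0.714 in wild type. The library kit keeps strand, but no source used here says whether counting took it into account, so reads of the 2 strands may have been mixed.

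**Figure D4:**
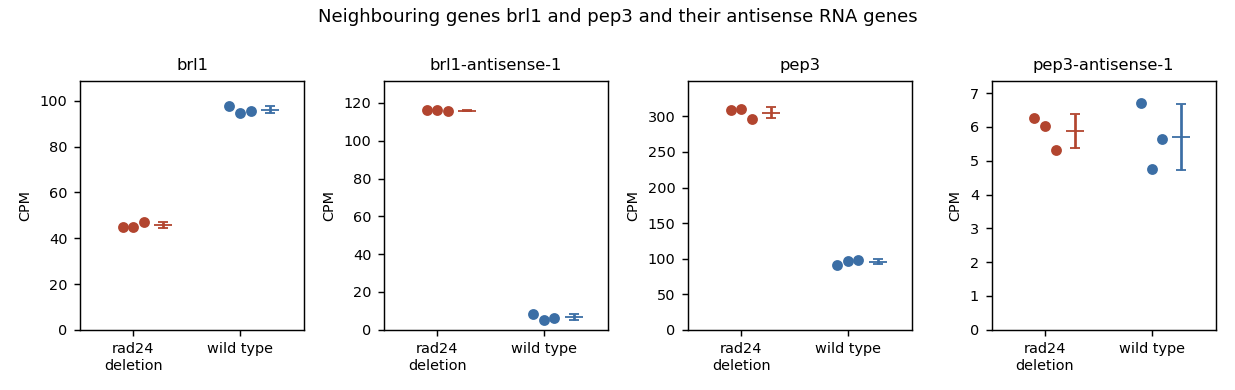
Level in CPM of brl1, brl1-antisense-1, pep3 and pep3-antisense-1 in each of 3 rad24 deletion libraries (left) and 3 wild type libraries (right), with the mean and SD beside the points; each axis starts at 0 and has its own range. In the mutant brl1 is lower, brl1-antisense-1 and pep3 are higher, and the libraries of pep3-antisense-1 overlap.

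Antisense RNA genes named for the gene opposite exist for 12 of the 99 genes, and 11 passed the filter. Of these, 3 were higher, 3 lower and 5 not called, against 65.7% called among 536 tested antisense genes of this kind (35.4% higher, 30.2% lower). Besides brl1-antisense-1, pof9-antisense-1 was higher, at 18.7, 19.3 and 18.6 CPM in the mutant and 13.6, 8.59 and 11.2 CPM in wild type (log2 fold change 0.73, SE 0.11, adjusted p = 4.80e-05). Its ratio to pof9 was 0.323, 0.331 and 0.341 in the mutant, against 0.0994, 0.0593 and 0.0828 in wild type, so for pof9, as for brl1, the antisense gene was higher where the gene opposite was lower.

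The other antisense genes followed no one direction. The low ubc11-antisense-1 averaged 1.81 ± 0.130 CPM in the mutant and 0.459 ± 0.168 CPM in wild type (log2 fold change 1.96, adjusted p = 3.46e-05), and ubc11 was higher too. The pof10-antisense-1 gene averaged 6.15 ± 1.11 CPM in the mutant and 13.4 ± 1.71 CPM in wild type (log2 fold change -1.13, adjusted p = 3.72e-06), and pof14-antisense-1 averaged 3.05 ± 0.507 CPM in the mutant and 4.61 ± 0.386 CPM in wild type (log2 fold change -0.58, adjusted p = 0.00499), while pof10 and pof14 were higher. The fall of rad8-antisense-1 (log2 fold change -0.22) stood beside a fall of rad8. The call of this antisense gene was lost without mutant replicate 2 (-0.20), mutant replicate 3 (-0.19) or wild type replicate 3 (-0.15). It was also lost under both other scalings named above. In the authors' deposited table neither pof14-antisense-1 nor rad8-antisense-1 is called (adjusted p there 0.23 and 0.372). Of the 99 genes, 60 overlap a gene on the opposite strand among the 3 nearest counted genes on each side. The share over all genes was not taken.

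The third fall beyond 2-fold was that of SPBC15C4.06c, a predicted RING ligase of the human RNF13 family with no known role. Its product text also calls it Meu34, a name that another row of the table carries. It had 42.0, 45.4 and 44.3 CPM in the mutant, against 93.5, 104 and 105 CPM in wild type, 2.30-fold lower (log2 fold change -1.20, SE 0.05, adjusted p = 9.23e-11). The other gene that the descriptions place in the RNF13 family, SPAC57A7.09, moved the other way, with 78.6, 78.4 and 77.0 CPM in the mutant, against 46.9, 44.4 and 48.5 CPM in wild type (log2 fold change 0.74, SE 0.04, adjusted p = 2.73e-09). The ratio of SPAC57A7.09 to SPBC15C4.06c was 1.87, 1.73 and 1.74 in the mutant, against 0.502, 0.426 and 0.463 in wild type, so which of the family had more counts was turned round in each library. The genes flanking SPBC15C4.06c had log2 fold changes of 0.05 (dhx29) and -0.20 (taf10).

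Further falls were those of SPCC1223.01, mpe1 and prp19. The gene SPCC1223.01, described as a ligase for rescue of stalled ribosomes, had 94.2, 95.1 and 91.7 CPM in the mutant, against 165, 169 and 154 CPM in wild type (log2 fold change -0.79, SE 0.04, adjusted p = 2.99e-10). The mpe1 gene, a RING protein of the mRNA cleavage and polyadenylation factor, had 79.1, 76.8 and 78.4 CPM in the mutant, against 123, 125 and 129 CPM in wild type (log2 fold change -0.68, SE 0.03, adjusted p = 4.13e-10). The prp19 gene, the ligase of the spliceosome, averaged 147 ± 4.43 CPM in the mutant and 201 ± 4.96 CPM in wild type (log2 fold change -0.45). For each of them the mutant libraries lay below the wild type libraries. By contrast rkr1, the ligase that marks nascent chains on stalled ribosomes in S. cerevisiae, averaged 238 ± 4.98 CPM in the mutant and 190.3 ± 4.12 CPM in wild type (log2 fold change 0.32, adjusted p = 7.58e-07).

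The genes rad8 and mrz1 and those of the SUMO-targeted ligase went both ways. The rad8 gene, the homolog of the helicase and ligase Rad5 of S. cerevisiae that extends chains on PCNA, averaged 149.7 ± 1.15 CPM in the mutant and 211 ± 6.70 CPM in wild type (log2 fold change -0.49, SE 0.03, adjusted p = 8.59e-09), and mrz1, described as related to Topors, averaged 57.3 ± 1.54 CPM in the mutant and 82.1 ± 4.95 CPM in wild type (log2 fold change -0.52, adjusted p = 2.14e-07). In the SUMO-targeted ligase, which acts on proteins already carrying SUMO, the catalytic subunit gene slx8 averaged 69.0 ± 0.291 CPM in the mutant and 49.4 ± 2.00 CPM in wild type (log2 fold change 0.48, SE 0.04, adjusted p = 2.19e-07). Its partner genes moved apart, rfp1 by 0.31 and rfp2 by -0.36 on the log2 scale. The ratio of rfp1 to rfp2 was 1.40, 1.34 and 1.37 in the mutant, against 0.942, 0.792 and 0.842 in wild type.

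The named ligase genes of protein quality control and of the spindle checkpoint had small fold changes. The ubr1 and ubr11 genes, of the family that recognises destabilising N termini, averaged 105 ± 0.799 CPM in the mutant and 111 ± 8.78 CPM in wild type (log2 fold change -0.08, adjusted p = 0.124) and 317 ± 1.18 CPM in the mutant and 316 ± 6.28 CPM in wild type (log2 fold change 0.01, adjusted p = 0.89). Without wild type replicate 2, ubr1 was called lower (-0.14), whereas it turned to 0.08 with library size only and to 0.015 with upper quartile factors. The ubr11 gene was called higher with upper quartile factors (0.10) and library size only (0.17). The san1 gene, of nuclear protein quality control, averaged 165 ± 3.98 CPM in the mutant and 142 ± 5.82 CPM in wild type (log2 fold change 0.22, adjusted p = 6.51e-05). The dma1 gene, of the spindle checkpoint, averaged 82.4 ± 0.912 CPM in the mutant and 94.3 ± 3.93 CPM in wild type (log2 fold change -0.19, adjusted p = 3.54e-04), and its call was lost with library size only (-0.03).

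The rule for named genes also took SPCC4G3.12c, SPAC16A10.03c and SPAC23A1.07. The predicted ligase gene SPCC4G3.12c averaged 109 ± 0.983 CPM in the mutant and 74.1 ± 4.79 CPM in wild type (log2 fold change 0.55). The gene SPAC16A10.03c, described as related to Vps11, averaged 91.9 ± 1.63 CPM in the mutant and 62.8 ± 2.15 CPM in wild type (log2 fold change 0.55). The predicted ligase gene SPAC23A1.07 averaged 28.1 ± 1.38 CPM in the mutant and 38.2 ± 2.62 CPM in wild type (log2 fold change -0.45), lower in each mutant library than in each wild type library.

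The values were also read by complex, with the subunits that the rule did not take; these lists were put together after values had been seen. In the GID complex, known in S. cerevisiae for removing enzymes of gluconeogenesis, each of the 7 subunit genes was called higher, against 40.9% of all tested genes, with a median log2 fold change of 0.71 beside 0.02. The gid2 gene, its RING subunit and the only one among the 99, had 51.2, 53.8 and 52.7 CPM in the mutant, against 29.8, 26.0 and 26.6 CPM in wild type (log2 fold change 0.93, SE 0.06, adjusted p = 4.32e-09). The gid1 gene had 152, 150.5 and 158 CPM in the mutant, against 81.4, 78.2 and 83.4 CPM in wild type (log2 fold change 0.92, SE 0.04, adjusted p = 3.36e-11). Next came gid9 (log2 fold change 0.77), gid4 (0.71), gid8 (0.64) and gid5 (0.59), while gid7 moved by 0.08 (adjusted p = 0.0434) and is not called in the authors' deposited table (adjusted p there 0.174). The 3 mutant libraries lay above the 3 wild type libraries for each of the 7 genes.

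The rise of pep3 stood apart in size from that of its complexes. Of 8 HOPS and CORVET genes 6 were higher, 1 lower and 1 not called, with a median of 0.22, beside 40.9% higher and 37.4% lower over all tested genes. Of the 6 rises, those of vps16 and vps3 are not called in the authors' deposited table (adjusted p there 0.201 and 0.114). After pep3, the largest rise was that of vps8, the CORVET gene among the 99, at 148, 155 and 157 CPM in the mutant, against 113, 108 and 112 CPM in wild type (log2 fold change 0.47, SE 0.03, adjusted p = 2.88e-08). The core genes vps33 (0.27) and vps16 (0.16) rose by less, vps11 was not called (-0.05, adjusted p = 0.181), and vps41, specific to HOPS, was lower (-0.15).

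The Hrd1 complex, which with Doa10 removes misfolded proteins of the endoplasmic reticulum, was divided. Of 7 genes 2 were higher, 2 lower and 3 not called. The der1 gene, of the channel protein derlin, had 51.1, 51.1 and 54.6 CPM in the mutant, against 34.7, 33.6 and 32.6 CPM in wild type (log2 fold change 0.64, SE 0.05, adjusted p = 7.24e-08), and cue1, which anchors Ubc7, averaged 99.3 ± 2.68 CPM in the mutant and 71.0 ± 1.17 CPM in wild type (log2 fold change 0.48, SE 0.04, adjusted p = 3.77e-08). The hrd3 gene (-0.23) and ubc7 (-0.27) were lower. The ligase gene hrd1 itself averaged 96.7 ± 2.13 CPM in the mutant and 99.2 ± 3.00 CPM in wild type (log2 fold change -0.04, adjusted p = 0.322), with a log2 fold change of 0.12 under library size only. The doa10 gene averaged 199 ± 2.42 CPM in the mutant and 192 ± 5.12 CPM in wild type (log2 fold change 0.05, adjusted p = 0.165) and was called higher with upper quartile factors (0.15) and library size only (0.21).

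Subunits also moved in unequal directions where PCNA is ubiquitinated. The E2 genes mms2, ubc13 and rhp6 were higher, whereas the ligase genes rad8 and rhp18 were lower. The rhp18 gene, which is outside the rule, averaged 90.5 ± 3.09 CPM in the mutant and 120.0 ± 4.64 CPM in wild type (log2 fold change -0.41, adjusted p = 3.84e-07). In H2B ubiquitination rhp6 was higher, brl1 lower, and the fourth gene, shf1, was not called (-0.05, adjusted p = 0.414).

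**Figure D5:**
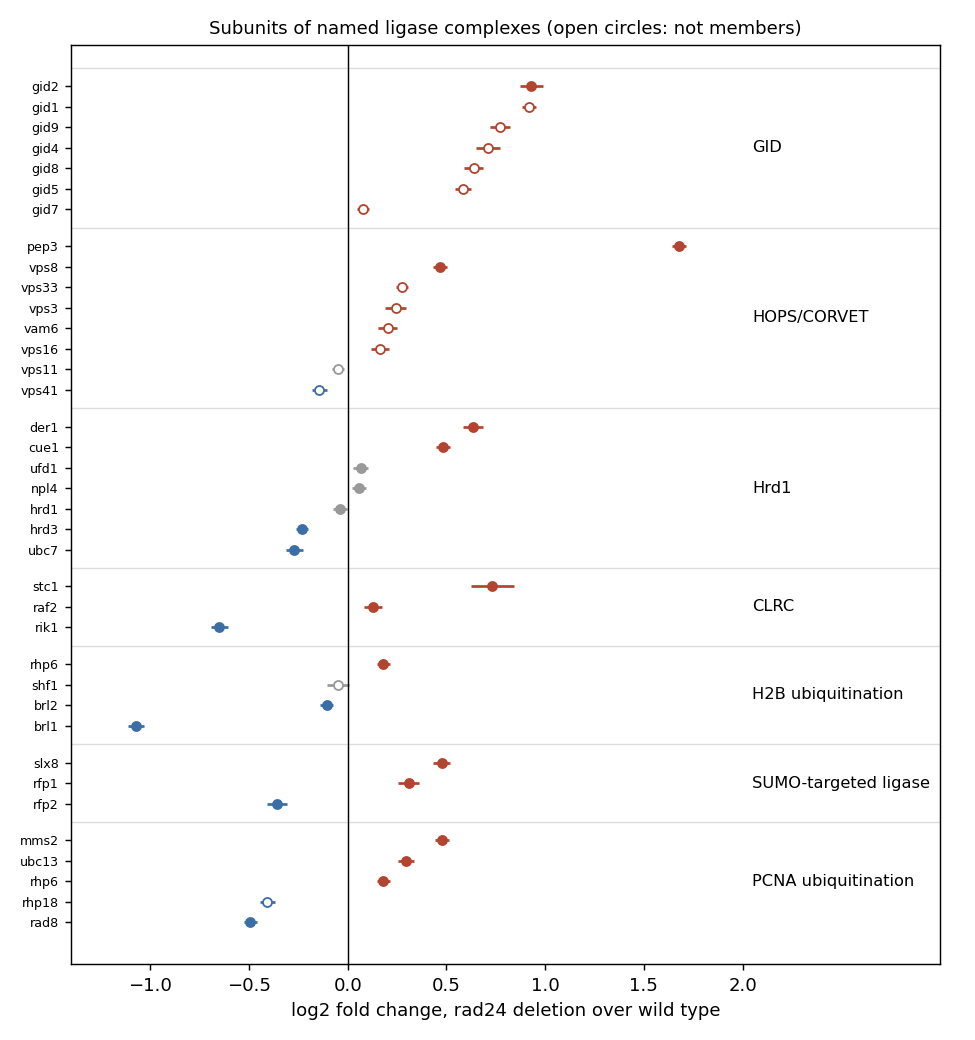
Log2 fold change, rad24 deletion over wild type, of the subunit genes of 7 ligase complexes or pathways, with bars of 1 SE; red marks genes called higher, blue called lower and grey not called, filled circles are among the 99 genes and open circles are not. The 7 GID genes lie above 0, whereas the other sets, apart from the large rise of pep3, hold genes on both sides of 0 or close to it.

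Other genes of the ubiquitin pathway were followed in 6 lists, with 82 distinct genes outside the 99, all tested. Of these, 61 were called, 39 higher and 22 lower, beside 78.3% called over all tested genes (40.9% higher, 37.4% lower). Calls were thus no more frequent than over all tested genes, and these shares are the background for each of the 6 lists. In the list of ubiquitin, its relatives and their activation, 5 of 14 were higher and 8 lower (median -0.18). The ubiquitin genes fused to ribosomal proteins fell: ubi1 by 0.56, uep1 by 0.51, ubi3 by 0.50 and ubi5 by 0.33 on the log2 scale. The polyubiquitin gene ubi4 had 225, 262 and 244 CPM in the mutant, against 214, 186 and 220.1 CPM in wild type (log2 fold change 0.23, SE 0.06, adjusted p = 0.00371). The rise of ubi4 is not called in the authors' deposited table (adjusted p there 0.15). The E1 gene ptr3 averaged 498 ± 2.63 CPM in the mutant and 569 ± 17.7 CPM in wild type (log2 fold change -0.19). The ned8 gene, of the relative that modifies cullins, rose by 0.32. In this list fub2 (-6.85) is the gene of a proteasome regulator, matched by name.

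Of 19 genes of the anaphase-promoting complex and its regulators, 13 were higher and 2 lower, beside 40.9% higher and 37.4% lower over all tested genes. Their median log2 fold change was 0.33 beside 0.02 for all genes, and the list as a whole was not tested. None of these is among the 99, since their product texts do not fall under the rule. The RING subunit gene apc11 averaged 36.9 ± 1.82 CPM in the mutant and 22.2 ± 1.46 CPM in wild type (log2 fold change 0.74, SE 0.07, adjusted p = 2.17e-07). The activator gene slp1, of the Cdc20 family, moved the other way, at 188, 183 and 191 CPM in the mutant, against 269, 264 and 276 CPM in wild type (log2 fold change -0.52, SE 0.03, adjusted p = 6.17e-09), and apc15 fell by 0.33. The meiotic activator gene mfr1 rose at a low level, 1.62 ± 0.501 CPM in the mutant and 0.329 ± 0.0873 CPM in wild type (log2 fold change 2.25).

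In the list of cullins and their regulators 7 of 15 were higher and 3 lower (median 0.03). The cullin genes differed: cul1 rose (0.43), pcu4 fell (-0.34) and cul3 was not called (0.03, adjusted p = 0.417). The gene of Knd1, the inhibitor that binds cullins free of Nedd8, rose by 0.59, and csn1, of the signalosome that strips Nedd8, by 0.34, while csn71 fell by 0.53 and the adaptor gene ddb1 by 0.33. The cdt2 gene, the receptor that works with Ddb1 in S phase, averaged 111 ± 3.33 CPM in the mutant and 74.7 ± 4.76 CPM in wild type (log2 fold change 0.57, adjusted p = 4.21e-08).

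Of 21 genes listed as deubiquitinases 7 were higher, 6 lower and 8 not called (median 0.00). Among those not called is pan2 (-0.06), which was matched only by an older name. The gene of Ubp8, which in S. cerevisiae takes ubiquitin off histone H2B, had 64.2, 69.6 and 66.7 CPM in the mutant, against 39.2, 43.0 and 41.3 CPM in wild type (log2 fold change 0.70, SE 0.05, adjusted p = 1.99e-08), so on the log2 scale it rose where brl1 fell. The otu2 (0.38) and otu1 (0.33) genes also rose, and uch1 (-0.66), ubp9 (-0.39) and ubp7 (-0.34) fell. Among 9 genes of substrate delivery around the segregase Cdc48, 5 were higher and 2 lower (median 0.12), with ubx4 (0.59) and ubx3 (0.33) up and ubp3 (-0.31) and mud1 (-0.19) down, and cdc48 itself was not called (-0.04, adjusted p = 0.417). The name dph1 in that list matched a gene of diphthamide synthesis. Of 5 arrestin-family adaptors, which bring Pub1 to its substrates, 2 were higher and 2 lower, with aly2 (0.44) and rod1 (0.22) up and any1 (-0.35) and aly1 (-0.14) down.

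Of the 99 genes, 64 pass an adjusted p of 0.05 in the authors' deposited table, 42 higher and 22 lower. The log2 fold changes there differ from those above by at most 0.0069, and the 6 genes beyond 2-fold are the same. The 16 further genes called above are all ones that the authors' deposited table does not call, and none was called there alone. Among the 16 are the F-box genes pof3, pof6 and pof7 (adjusted p there 0.0821, 0.124 and 0.112). The genes ipa1, raf2, dma1 and brl2 are others (adjusted p there 0.0669, 0.112, 0.104 and 0.0866). The standard errors in the authors' deposited table are the larger ones, with a median of 1.75 times those given here.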

How the data were processed

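The submitters' processing notes name the build ASM294v2 and, as tools, DESeq2, HTSeq 0.10.0, SAMtools and HISAT2 2.1.0; what each did, the strand setting and other versions are not stated there. The authors deposited raw counts per gene and library. Their own comparison, in the authors' deposited table, gives per gene the mean normalized count (a signal over the libraries), a log2 fold change, its standard error, a test score, a p-value and an adjusted p-value, per the file headers. The count table has 6987 rows, 1 identifier being there again with no count, and that repeat was left out.

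Counts were tested in edgeR 4.0.16 (R 4.3.3, limma 3.58.1) with TMM factors, genotype as the only term and the quasi-likelihood test on the 6084 genes that passed filterByExpr (902 did not); p-values were adjusted over these by the Benjamini-Hochberg method at 0.05. CPM use the TMM-scaled library sizes. The SE of a log2 fold change was obtained as its size over the root of the F statistic, and SDs are over n = 3 libraries. The biological coefficient of variation was 3.61%, so small differences passed the test. The labels call the libraries replicate experiments and do not name separate cultures, so p-values measure the spread between these libraries, which may be technical. An exact permutation of 3 against 3 libraries cannot go below p = 0.1, so single sums and ratios are given with no test. The steps were tested on simulated data.

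The members, lists and tests were chosen with earlier results of these data known. The rule for named genes took the 12 largest rises and 12 largest falls with libraries that do not overlap and at least 5 CPM, each gene beyond 2-fold, up to 3 largest changes and the 2 most abundant of each role group, and a fixed list of known ligases and E2s. Some single genes are not reported here. Other genes, the complexes and the ratios were chosen after their values were seen. Exon lengths, neighbours and overlaps come from ASM294v3, a later build, so no coordinates or sequences are given. The alternatives tried were DESeq2 1.42.0, limma-voom, other scalings (upper quartile, RLE, and library size only), the filter left out, at least 50 counts in each library of 1 genotype, protein coding genes only, the replicate number as a block, and each library left out in turn.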

Additional observations from a re-analysis of the deposited data

How the results depend on the processing

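The number of members called was 73 (DESeq2) to 87 (upper quartile factors) over the alternatives, and 77 to 80 with 1 library left out, against 80. The number of members called lower was 16 with library size only and 24 with upper quartile factors, against 28. Members changed at least 2-fold, higher, numbered 5 with library size only (gid2 at 1.09 and pof13 at 1.06 joined), and 4 with upper quartile factors (gid2 at 1.02), against 3, and brl1 left the 2-fold falls under both. With 1 library left out there were 6 to 7 members changed at least 2-fold. Antisense partners of members called numbered 0 with protein coding genes only, since that fit holds no antisense gene. With library size only, where the median of all genes was 0.19, these genes turned sign: rbx1 to 0.13, pub1 to 0.14, pub3 to 0.068, ubr1 to 0.084, brl2 to 0.057, pop2 to 0.15, pof6 to 0.0041 and hrd1 to 0.12. With upper quartile factors rbx1 turned to 0.061, pub1 to 0.075, ubr1 to 0.015, pop2 to 0.083 and hrd1 to 0.056, and ubr11, near 0, turned to -0.016 with RLE factors, -0.017 with DESeq2 and -0.013 without wild type replicate 2 (range with 1 library left out -0.013 to 0.0097); a shift of each value by the change of scaling is how the scaling alternatives are built. Of the values of single named genes under the alternatives, 815 kept their direction and side of the threshold, 17 passed the threshold only under an alternative, 15 lost it and 16 turned sign.

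The replicate numbers did not pair the libraries: deviations of libraries with the same number correlated at -0.00136, -0.00287 and 0.0503. With the replicate block 82 members were called, 52 higher and 30 lower, and genes called numbered 4753 in all. Depth limits the antisense genes: ubc11-antisense-1 lay below 2 CPM in each library, and doa10-antisense-1 was not tested.

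The pattern that picks the members reads the product text literally. A wider pattern, added after the data were seen, takes 7 more genes and gives 85 members called and 7 beyond 2-fold.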

Other observations

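The 7 genes that the wider product pattern adds are ligase genes whose description lacks the exact hyphen or whose names start with mug or meu. The largest change among them was that of rhp16, the homolog of Rad16 of S. cerevisiae in nucleotide excision repair, which had 46.7, 45.9 and 49.2 CPM in the mutant, against 106, 94.9 and 107 CPM in wild type (log2 fold change -1.12, SE 0.05, adjusted p = 1.40e-10). It was lower in each mutant library than in each wild type library, and its fold change was past 2-fold. The meu34 gene averaged 32.1 ± 2.55 CPM in the mutant and 46.0 ± 3.50 CPM in wild type (log2 fold change -0.52, adjusted p = 1.12e-05), and mlo2 averaged 56.5 ± 1.21 CPM in the mutant and 68.8 ± 0.593 CPM in wild type (log2 fold change -0.28, adjusted p = 1.87e-05). The mug30 gene was not called (log2 fold change -0.03, adjusted p = 0.661). The other 3 of the 7 are apc11, rhp18 and vps11, given above.

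The SUMO conjugating enzyme gene hus5, which works like an E2 for the modifier SUMO and falls outside the rule, averaged 72.0 ± 1.76 CPM in the mutant and 47.8 ± 2.36 CPM in wild type (log2 fold change 0.59, SE 0.05, adjusted p = 5.45e-08). The gene of SUMO itself, pmt3, averaged 130.3 ± 4.28 CPM in the mutant and 146 ± 11.3 CPM in wild type (log2 fold change -0.17, adjusted p = 0.0042). Its sign was opposite to that of hus5, but the libraries of the genotypes overlapped for pmt3. The authors' deposited table does not call pmt3 (adjusted p there 0.0554). The SUMO activating enzyme subunit gene rad31 moved by 0.14 on the log2 scale (adjusted p = 0.00915) and is not called in the authors' deposited table (adjusted p there 0.638).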
